A study of Homo sapiens with 4 samples.

Results

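The p53 pathway was followed here through 29 named genes, the classical transcriptional targets of the tumour suppressor p53 together with the regulators that hold it in check. The genes were taken by symbol from a list and not by how they behaved, and each of the 29 matched 1 of the 51714 Ensembl gene identifiers in the files. RNA came from Raji, a human B lymphocyte line established from Burkitt lymphoma. From a vector, both lines expressed RPB1, the catalytic subunit of RNA polymerase II, in a form with an HA tag that α-amanitin does not inhibit. In the R1810A line (2 libraries) the arginine R1810 of its C-terminal domain was replaced by alanine, so that it could not be methylated, and in the WT line (2 libraries) that arginine was kept. Both lines were polyclonal pools selected with G418 for 6 to 12 days and then with α-amanitin for 10 days, so that the resistant subunit took over from the endogenous one. The α-amanitin was thus present in both groups, and no library from untreated Raji cells was compared here. The series asks whether losing this methylation site changes gene expression.

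p53 is a transcription factor that accumulates after DNA damage, blocked transcription or other stress and switches on genes for cell cycle arrest, apoptosis and repair. MDM2, one of its targets, is the ubiquitin ligase that sends p53 for degradation, which closes a feedback loop. Several of the genes below also have other activators.

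A p53 response element consists of a pair of half-sites of 10 bases, and promoter sequences are shown here for the genes in which its letters were found. RefSeq promoter windows on GRCh38.p14, running from 250 bases before a gene's start to 50 after it, were on hand for 23 of the 29 genes. Both strands were searched for the p53 half-site consensus, which reads the same on either strand. At least 1 perfect half-site stood in a window of 6 of these 23 genes (26.1%), against 8.06% of the 27305 genes in the table. A gene was counted if any of its windows matched. The 23 genes had 34 windows and the 27305 had 35116, and the shares were not adjusted for this. These genes were also listed as known p53 targets, so a higher share says nothing new about them. A pair of half-sites, with at most 2 mismatches in all, none in the 4 core bases of either, and a spacer of 0 to 13 bases, stood in the windows of 3 of the 23 (13%), DDB2, FAS and AEN, against 1.81% of all. Their windows are printed with the half-site letters in capitals and everything else in lower case.
DDB2 (chr11:47214724-47215023, plus strand): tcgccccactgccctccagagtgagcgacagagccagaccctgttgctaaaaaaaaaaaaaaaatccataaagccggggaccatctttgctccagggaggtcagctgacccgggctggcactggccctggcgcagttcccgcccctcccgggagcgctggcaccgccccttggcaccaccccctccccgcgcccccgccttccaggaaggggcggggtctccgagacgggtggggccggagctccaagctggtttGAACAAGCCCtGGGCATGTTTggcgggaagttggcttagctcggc
FAS (chr10:88991181-88991480, plus strand): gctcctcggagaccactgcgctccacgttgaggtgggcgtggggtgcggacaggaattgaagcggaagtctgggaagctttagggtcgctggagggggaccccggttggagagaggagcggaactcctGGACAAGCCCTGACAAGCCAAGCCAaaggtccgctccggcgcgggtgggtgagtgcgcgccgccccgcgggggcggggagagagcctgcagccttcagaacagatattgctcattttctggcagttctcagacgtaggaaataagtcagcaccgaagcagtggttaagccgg
AEN (chr15:88621090-88621389, plus strand): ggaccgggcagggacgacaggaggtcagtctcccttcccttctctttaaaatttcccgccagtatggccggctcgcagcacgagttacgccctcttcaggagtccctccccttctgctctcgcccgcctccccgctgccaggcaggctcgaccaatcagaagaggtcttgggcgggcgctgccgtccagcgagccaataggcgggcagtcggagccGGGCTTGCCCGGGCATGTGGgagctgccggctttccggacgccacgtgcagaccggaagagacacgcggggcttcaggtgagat
In DDB2 both half-sites were perfect with a spacer of 1 base, just after the start, whereas the pair in AEN and the first pair in FAS had no spacer and 2 mismatches each. The capitals in FAS also cover a second pair, which shares the first half-site. A single perfect half-site without such a partner was found for these genes.
FDXR (chr17:74872945-74873244, minus strand): GGGCTTGCCC
SESN1 (chr6:109008939-109009238, minus strand): GGACAAGTCT
PLK2 (chr5:58460037-58460336, minus strand): AGACTTGCTT
A match describes letters in a window and shows no binding, and the other genes may have their elements elsewhere.

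Sequencing was shallow. Gene counts summed to 2081636 and 2116444 in the R1810A libraries and to 2326036 and 2991959 in the WT libraries, and 16414 to 17824 genes had a read. POLR2A, which codes for RPB1, had 1987 and 2170 reads in R1810A and 1999 and 2567 reads in WT, but these counts cannot tell the vector's transcript from the endogenous one and so check no label. Of 8 B cell markers all had reads, and their summed level was 6844 to 7742 CPM in R1810A and 5998 to 7413 CPM in WT (CPM, each count scaled to the summed gene counts of its library). Of 6 T and NK cell markers 4 had a read, at a summed 2.40 to 2.84 CPM in R1810A and 2.67 to 5.16 CPM in WT, with CD3D and CD2 at 0. Of 6 fibroblast and epithelial markers only COL1A1 had any, at 2.84 to 6.25 CPM in R1810A and 1.29 to 1.34 CPM in WT. The 6 myeloid markers summed to 158 to 244 CPM in R1810A and 138 to 195 CPM in WT, nearly all of it from CSF1R, with S100A8 and S100A9 at 0. In bulk RNA of this kind, fewer cells of a type and less RNA per cell cannot be told apart.

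Most of the pathway's genes were transcribed in these cells under both forms of the polymerase. Reads were found in all 4 libraries for 25 of the 29 genes, and 24 had enough for the test across all genes. On the deposited RPKM scale, which corrects for gene length, BTG2 led with a mean of 142.7 ± 9.24 RPKM in R1810A and 181.6 ± 29.1 RPKM in WT (SD, n = 2 each). BTG2 codes for an antiproliferative protein linked to mRNA deadenylation, and its mean over the 4 libraries lay above 98.8% of the tested genes. It was followed by CDKN1A, the cyclin-dependent kinase inhibitor p21, with 47.9 ± 1.41 RPKM in R1810A and 48.8 ± 16.3 RPKM in WT (SD, n = 2 each). CCNG1, cyclin G1, stood beside it at 43.6 ± 2.56 RPKM in R1810A and 46.9 ± 2.77 RPKM in WT. The libraries of these 2 neighbours in the order did not overlap in R1810A but did in WT. AEN, a nuclease of apoptosis, was next at 40.1 ± 0.618 RPKM in R1810A and 38.0 ± 13.8 RPKM in WT. In R1810A its libraries lay below those of both genes, while in WT the ranges overlapped.

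The middle of the order was held by ZMAT3, BAX, DDB2, TRIAP1, SESN1, FAS, RRM2B, TIGAR, TNFRSF10B and MDM2, with means over all libraries between 27.4 RPKM for ZMAT3 and 11.8 RPKM for MDM2. Below them TNFRSF10A, POLH, FDXR, GADD45A, MDM4, BBC3, PPM1D, PLK3, TP53INP1 and XPC ran down to 2.69 RPKM for XPC, which was still above 23.6% of tested genes. Neighbours within these 2 ranges lay close together, and with 2 libraries a group their order is a description.

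**Figure D1:**
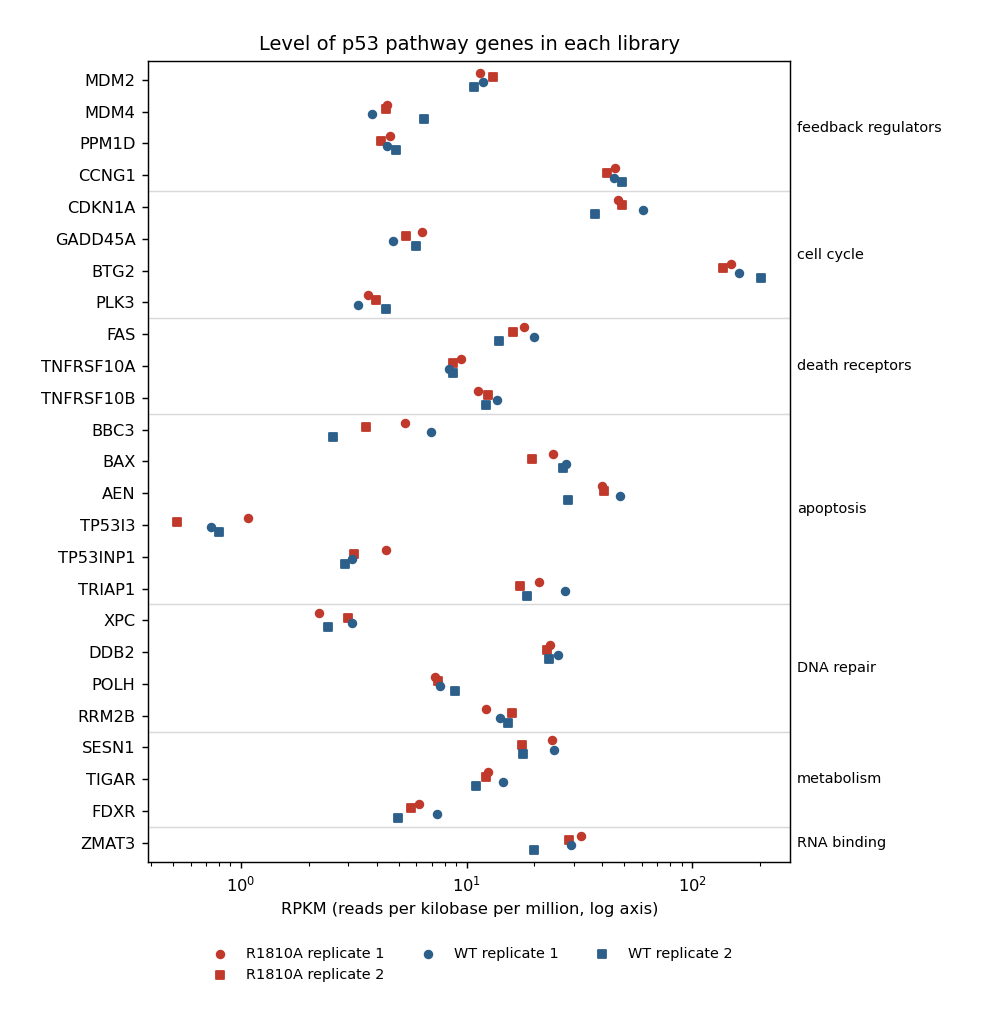
Level of each p53 pathway gene with reads in all 4 libraries, in RPKM on a log axis, with R1810A libraries in red above WT libraries in blue and circles for replicate 1 and squares for replicate 2. BTG2 stands highest, at 136 to 202 RPKM, TP53I3 lies lowest, and for many genes the red points fall between the blue ones.

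At the other end, 5 genes were barely read. PHLDA3, which codes for a repressor of AKT signalling, had 0 reads in every library, where a count of 0 allows a level of up to 0.368 RPKM in the shallowest library. GDF15, a secreted stress cytokine, had 0 and 0 reads in R1810A and 1 and 0 reads in WT. PERP, a membrane protein of cell adhesion and apoptosis, had 0 and 1 reads in R1810A and 0 and 0 reads in WT. PLK2, a Polo-like kinase, had 0 and 0 reads in R1810A and 0 and 1 reads in WT. TP53I3, a quinone oxidoreductase, had 10 and 5 reads in R1810A and 7 and 10 reads in WT. No fold is given for these 5, and a difference between the lines was not detectable for them at this depth. The limits cover counting error only, since reads copied by PCR are not independent molecules.

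R1810A was then compared with WT by edgeR's quasi-likelihood test across all 10674 genes with enough reads. None of the 24 tested pathway genes passed an adjusted p under 0.05 in either direction. The background was 0.347% of tested genes called higher and 0.00937% called lower, 0.356% together, so the pathway count of 0 lies at the background. At an unadjusted p under 0.05, 2 pathway genes were higher and 0 lower (background 4.94% and 3.06%). DESeq2 (background 0.365% higher, 0.0187% lower) and limma-voom (0.225% and 0.00937%) called 0 of the 24 as well, with 1 and 2 genes higher at an unadjusted p under 0.05 and 0 lower. Fitted log2 fold changes of R1810A over WT ran from -0.23 for BTG2 to 0.46 for TP53INP1, with a median of 0.07 and 19 of 24 above 0. Over all tested genes the median was -0.0046, and 49.4% lay above 0. No pathway gene passed either with other scalings, filters or fit settings, whose backgrounds were 0.356% higher (relative log expression scaling), 0.0468% lower (total reads), 0.361% higher and 0.0324% lower (no filter), 0.35% higher (mean count of at least 20), 0.375% higher and 0.0375% lower (robust edgeR) and 0.684% higher and 0.0375% lower (replicate block). The sign of the pathway median depended on the scaling and on single libraries. With the deposited total reads as library size the median of all genes moved to -0.13 and that of the pathway genes to -0.05. The pathway median thus stayed above that of all genes under this scaling. Without WT replicate 2 the pathway median was -0.02, below the 0.0039 of all genes.

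**Figure D2:**
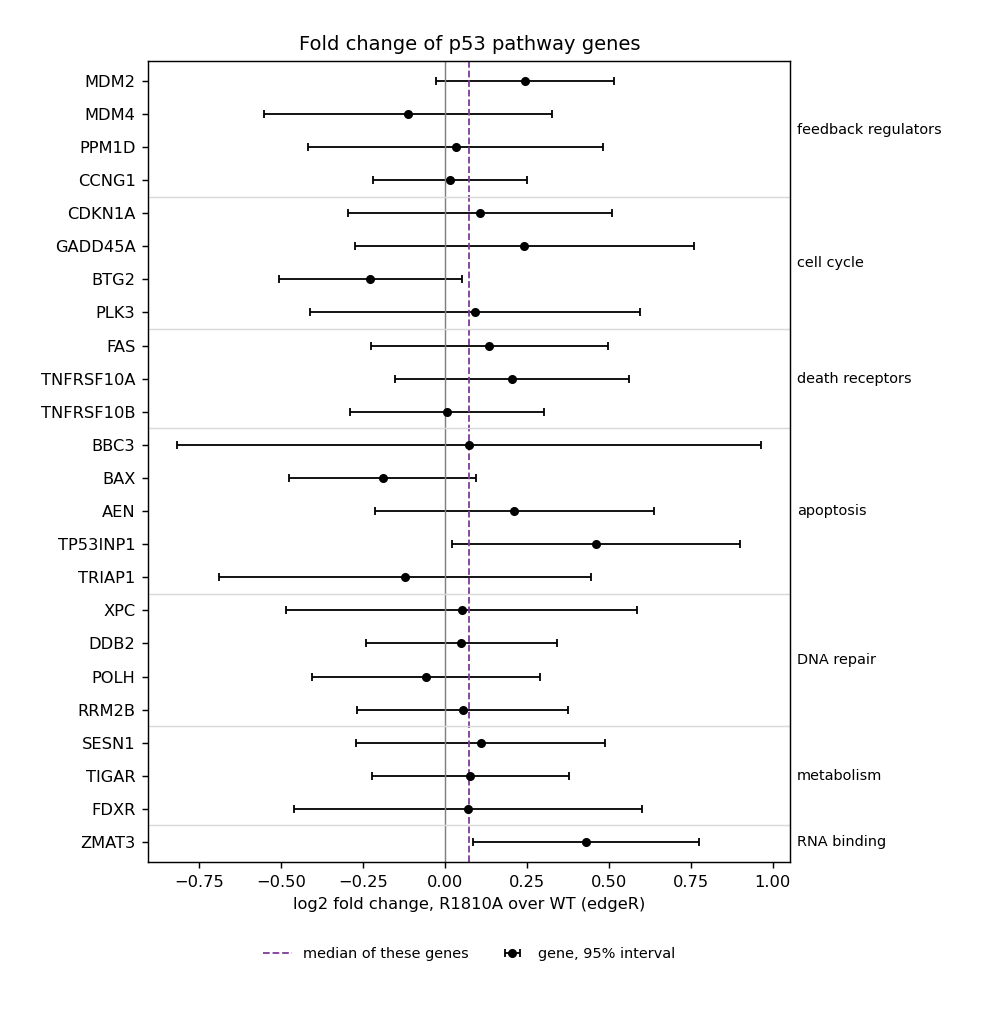
Fitted log2 fold change of R1810A over WT for the 24 tested genes, grouped by role, with 95% intervals derived from the edgeR test. The dashed line marks their median of 0.07, all points lie between -0.23 and 0.46, and the intervals of 22 genes include 0.

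Among the regulators that restrain p53, MDM2 had 170 and 202 CPM in R1810A and 164 and 151 CPM in WT, here and below on the TMM-scaled CPM of the test. R1810A thus lay above WT in all libraries, by little for replicate 1 of each, and on the RPKM scale the groups overlapped. The fold was 1.19 (95% interval 0.981 to 1.43, edgeR adjusted p = 0.654). MDM4, the MDM2 relative that blocks the activation domain of p53, had 122 and 126 CPM in R1810A and 98.6 and 167 CPM in WT. The R1810A libraries were nearly equal and sat inside the wide WT range, with a fold of 0.925 (0.682 to 1.26, adjusted p = 0.913). PPM1D, the phosphatase WIP1 that removes activating phosphates from p53 and its kinases, and CCNG1, which recruits a phosphatase to MDM2, had folds of 1.02 and 1.01. The interval of CCNG1, 0.859 to 1.19, was among the narrowest in the pathway.

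Among the genes of cell cycle arrest, CDKN1A, the best known p53 target, had 256 and 275 CPM in R1810A and 306 and 189 CPM in WT. The WT libraries differed 1.61-fold from each other and enclosed both R1810A libraries, so the fold of 1.08 (0.815 to 1.42, adjusted p = 0.909) was small beside the WT spread. BTG2 had 793 and 746 CPM in R1810A and 797 and 1003 CPM in WT. Both R1810A libraries lay below both WT libraries, the higher of them barely, and the fold was 0.854 (0.704 to 1.04, adjusted p = 0.672). GADD45A, a growth arrest and DNA damage gene, and PLK3, a stress-responsive Polo-like kinase, were low, with 53 and 46 reads for GADD45A in R1810A and 40 and 67 in WT. Their folds were 1.18 (0.827 to 1.69) and 1.07 (0.752 to 1.51), and the groups of both genes overlapped.

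The death receptors relay signals from FAS ligand and TRAIL to caspases. TNFRSF10A, a TRAIL receptor, had 47.5 and 45.2 CPM in R1810A and 39.4 and 40.9 CPM in WT. Its groups did not overlap, though on the RPKM scale only by 8.71 in R1810A against 8.70 in WT, and the fold of 1.15 (0.90 to 1.47) did not pass (adjusted p = 0.780). FAS itself had 127 and 117 CPM in R1810A, between the 131 and 91.9 CPM of WT (fold 1.10, 0.855 to 1.41, adjusted p = 0.861). The other TRAIL receptor, TNFRSF10B, had 89.7 and 102 CPM in R1810A and 101 and 90.5 CPM in WT, with a fold of 1.00 (0.818 to 1.23). In GENCODE v29, exons of FAS share 380 bases with ACTA2, those of TNFRSF10A 266 with AC100861.1 and those of TNFRSF10B 67 with RHOBTB2. Reads of these neighbours could be mixed with theirs. ACTA2 had 9 and 2 reads in R1810A and 12 and 10 in WT, and AC100861.1 had 5 and 8 and 15 and 16. RHOBTB2 had 141 and 132 in R1810A and 180 and 259 in WT.

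The genes of apoptosis held both signs. TP53INP1, a stress protein that promotes p53 phosphorylation and autophagy, had 48.0 and 35.6 CPM in R1810A and 31.5 and 29.3 CPM in WT. Its R1810A libraries lay above both WT libraries but differed 1.35-fold from each other. The fold of 1.38 (1.01 to 1.87) had an unadjusted p of 0.042 and did not pass (edgeR adjusted p = 0.604). BAX, which forms pores in the outer mitochondrial membrane, had 120 and 101 CPM in R1810A, below the 128 and 124 CPM of WT, with a fold of 0.877 (0.719 to 1.07, adjusted p = 0.745). BBC3, the BH3-only protein PUMA, showed the widest spread, with 21.6 and 14.9 CPM in R1810A and 26.3 and 9.65 CPM in WT, a 2.72-fold gap between the WT libraries. Its fold was 1.05 (0.568 to 1.95, adjusted p = 0.975), the widest interval of the 24.

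AEN had 238 and 251 CPM in R1810A and 267 and 158 CPM in WT. Again the R1810A libraries sat between the WT libraries, and the fold was 1.16 (0.862 to 1.56, adjusted p = 0.806). TRIAP1, a small mitochondrial protein that inhibits apoptosis, had 22.1 and 18.8 CPM in R1810A and 26.7 and 18.3 CPM in WT (fold 0.919, 0.620 to 1.36).

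Genes of DNA repair differed little between the lines. DDB2 and XPC code for proteins that recognise ultraviolet damage in nucleotide excision repair. DDB2, whose promoter holds the perfect element printed above, had 83.0 and 83.7 CPM in R1810A and 84.1 and 77.2 CPM in WT, with a fold of 1.04 (0.846 to 1.27). XPC had 43 and 59 reads in R1810A and 61 and 63 in WT. In GENCODE v29 its exons share 318 bases with LSM3 on the opposite strand. Reads there cannot be told apart if strand was not used in counting. LSM3 had 93 and 97 reads in R1810A and 146 and 243 in WT. XPC exons also share 1140 bases with AC093495.1, which had 0 and 2 reads in R1810A and 0 and 1 in WT. Another 413 are shared with AC090004.1, an identifier absent from these files. POLH, the polymerase eta that copies past ultraviolet lesions, had 49.4 and 52.4 CPM in R1810A and 48.6 and 56.9 CPM in WT. RRM2B, the p53-inducible subunit of ribonucleotide reductase, had 116 and 155 CPM in R1810A, around the 125 and 136 CPM of WT. All 4 log2 fold changes lay between -0.06 and 0.05, and each adjusted p was at least 0.944.

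Of the genes of metabolism, SESN1, a sestrin that restrains mTORC1, had 149 and 113 CPM in R1810A and 141 and 104 CPM in WT, with nearly the same gap inside each group. TIGAR, a fructose-bisphosphatase that slows glycolysis, had 198 and 200 CPM in R1810A, between the 215 and 164 CPM of WT. In GENCODE v29, 1711 of the 4017 exon bases of TIGAR are shared with AC008012.1 on the same strand, an identifier absent from these files. FDXR, a mitochondrial reductase that passes electrons to ferredoxin, had 26.9 and 25.5 CPM in R1810A, between the 30.2 and 20.3 CPM of WT. Their folds were 1.08, 1.06 and 1.05, none of them larger than the spread between WT libraries.

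ZMAT3, an RNA-binding zinc finger protein known to act on splicing downstream of p53, had the smallest p of the pathway. It had 595 and 546 CPM in R1810A and 503 and 346 CPM in WT. Again R1810A lay above WT without overlap, but the WT libraries differed 1.45-fold from each other, and on the RPKM scale the groups overlapped. The fold was 1.35 (1.06 to 1.71) with an unadjusted p of 0.019, which did not pass over all genes (edgeR adjusted p = 0.500). With the 2 libraries of each group pooled, counting error alone gave an interval of 1.30 to 1.46 around a pooled fold of 1.38, narrower than the interval of the test, which includes the spread between libraries.

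The 2 WT libraries were further apart than the difference between the lines in most of the pathway. On the log2 scale their gap exceeded the fitted fold change in 20 of the 24 genes (59.5% of all tested genes), and the R1810A gap did so in 13 (52.4%). In 12 of the 24 both R1810A libraries lay inside the WT range, which held for 18.6% of all tested genes. These 12 were MDM4, CCNG1, CDKN1A, PLK3, FAS, BBC3, AEN, TRIAP1, DDB2, POLH, TIGAR and FDXR. R1810A lay above WT without overlap in 4 genes, MDM2, TNFRSF10A, TP53INP1 and ZMAT3 (19.8% of all tested genes), and below in BTG2 and BAX (19.5%). On the deposited RPKM, which uses total reads, 2 genes lay above (9.76% of all), 3 below (36.4%) and 8 inside (16.1%).

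The gap had a direction. WT replicate 1 was more than 1.25-fold above WT replicate 2 in 10 pathway genes, against 14.3% of all tested genes, and more than 1.25-fold below it in 4, against 17.8%. The fold of 1.25 was chosen after the values were seen. The 10 were CDKN1A (1.61-fold), FAS (1.43), BBC3 (2.72), AEN (1.69), TRIAP1 (1.46), XPC (1.27), SESN1 (1.36), TIGAR (1.31), FDXR (1.49) and ZMAT3 (1.45), and the 4 were MDM4 (0.591), GADD45A (0.786), BTG2 (0.795) and PLK3 (0.745). Between the R1810A libraries the same limit was passed upward by 3 genes and downward by 2 (12.5% and 11.6% of all). Among the 43 tested genes of a second list of p53 targets, WT replicate 1 was above WT replicate 2 by that fold in 14 and below in 2. The other 2 lists described below did not share this direction to that extent. Of 22 tested genes upstream of p53 or beside it, 2 were above by that fold and 0 below. Of 24 genes that p53 represses through p21 and the DREAM complex, 1 was above and 3 below. Other differences moved with the same pair, since 3 of the 8 B cell markers, MS4A1, CD79B and CD22, were also past that fold upward and 0 downward. The labels name nothing that sets the WT libraries apart, and what part any difference between them had in these values was not tested.

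**Figure D3:**
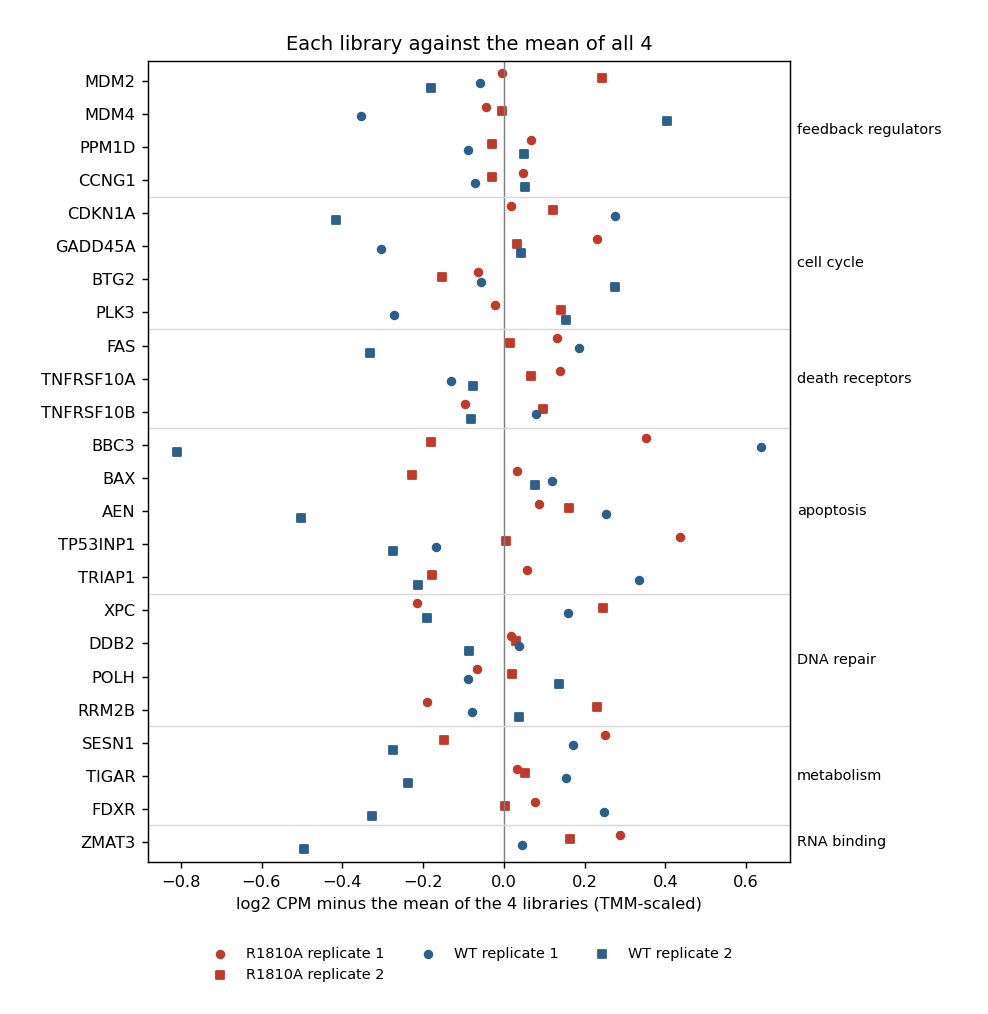
TMM-scaled log2 CPM of each library minus the mean of all 4, for the 24 tested genes, with R1810A in red and WT in blue and circles for replicate 1 and squares for replicate 2. The widest gaps are between blue circles and blue squares, as for BBC3, AEN and CDKN1A, and the red points of 12 genes lie between the blue ones.

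Leaving out 1 library showed how much rested on that pair. Without WT replicate 1, ZMAT3 and AEN passed over all genes, with log2 fold changes of 0.72 and 0.63 (edgeR adjusted p = 0.011 and 0.023), where 1.03% of all tested genes were called higher and 0.364% lower. CDKN1A, at 0.48, missed the threshold there (adjusted p = 0.053), as did BTG2, at -0.38 (0.063), and MDM4, at -0.43 (0.090). Without WT replicate 2, no pathway gene passed (background 0.0182% higher), and the log2 fold changes of ZMAT3, AEN and CDKN1A were 0.18, -0.13 and -0.21. Both these fits take the spread from the R1810A pair alone and assume that the remaining WT library varies like it. Leaving out an R1810A library gave 0 calls in the pathway, against a background of 0.331% higher and 0.0448% lower without replicate 1 and 0.702% and 0.036% without replicate 2. A sign change occurred in 17 of the 24 genes when 1 library or another was left out, while MDM2, GADD45A, BTG2, TNFRSF10A, BAX, TP53INP1 and ZMAT3 kept theirs. This count largely restates the overlap given above and is no separate evidence. With 2 libraries a group, a gene with R1810A inside the WT range changes sign almost by construction. One whose groups do not overlap keeps its sign in the same way. The share of all tested genes that changed sign in this way was not counted.

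**Figure D4:**
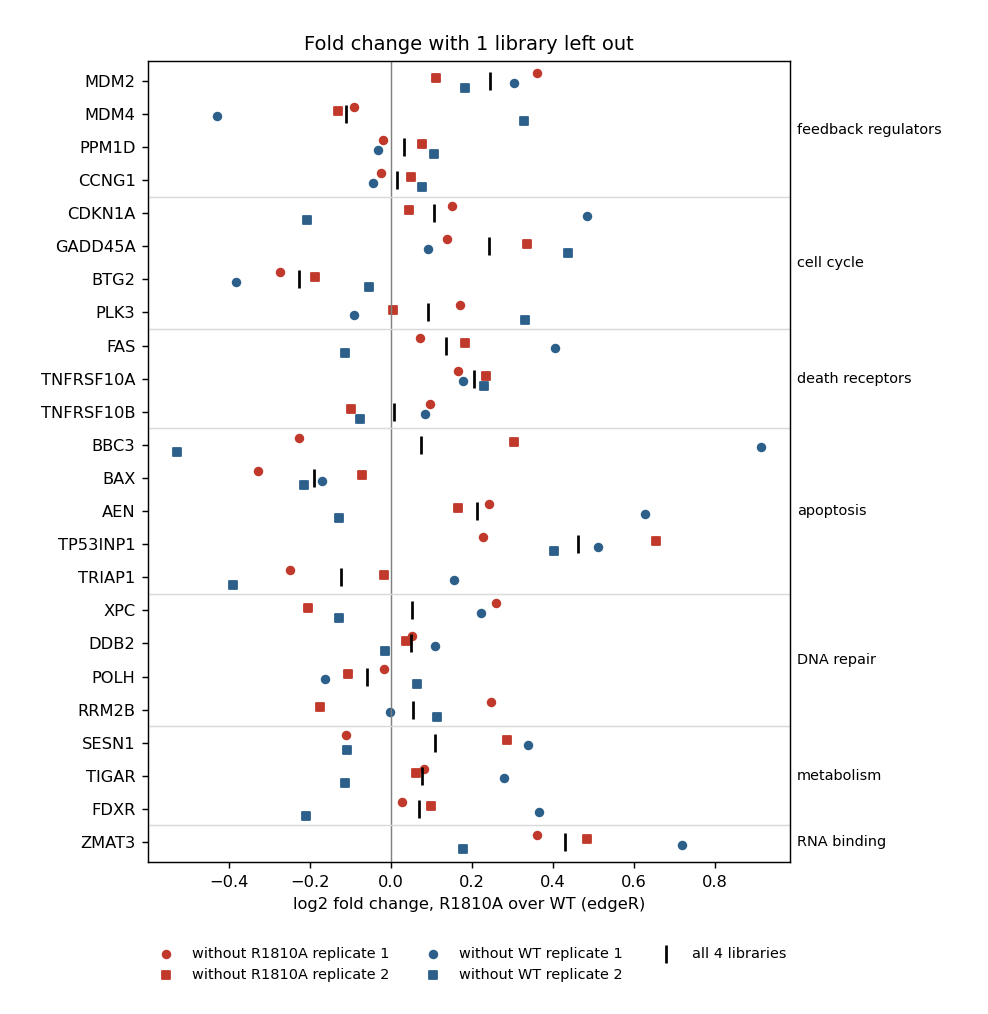
Fitted log2 fold change of R1810A over WT for each gene with 1 library left out, coloured and shaped by the library removed, and with all 4 libraries (black bars). Removing WT replicate 1 or WT replicate 2 moves AEN to 0.63 or -0.13 and CDKN1A to 0.48 or -0.21, while TNFRSF10A stays between 0.17 and 0.23.

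The rest of the pathway was read from 3 further lists. Of the 26 kinases, ligases, acetyltransferases and other factors listed upstream of p53 or beside it, 22 were tested. None passed in either direction with edgeR (background 0.347% higher and 0.00937% lower). At an unadjusted p under 0.05, 1 was higher and 0 lower (background 4.94% and 3.06%). The median log2 fold change of this list was 0.14, against -0.0046 over all tested genes. With the deposited total reads as library size it was 0.02, against -0.13 over all tested genes. The median of the list thus stayed above that of all genes under both scalings. The gene higher at that unadjusted p was EP300, the acetyltransferase p300 that acetylates p53 and serves as its coactivator. EP300 had 98.8 and 105 CPM in R1810A and 67.0 and 65.2 CPM in WT. Its libraries agreed closely within each group, and its log2 fold change of 0.63 (SE 0.13) came near the threshold without passing (adjusted p = 0.087). Next by p was USP7, a deubiquitinase of p53 and MDM2, with 52 and 77 reads in R1810A and 55 and 61 in WT (0.49, SE 0.24, adjusted p = 0.654). No member of this list had more than 10 reads in any library among the 4 left untested, TP73, HIPK2, TP53BP2 and PPP1R13L.

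Of 61 other targets known to respond to p53, 43 were tested and 0 passed in either direction, with 2 higher and 1 lower at an unadjusted p under 0.05 and a median log2 fold change of 0.03. PTP4A1, a protein tyrosine phosphatase, had 74.8 and 92.8 CPM in R1810A and 56.1 and 47.9 CPM in WT (0.69, SE 0.16, adjusted p = 0.148). FUCA1, a lysosomal fucosidase, had 33.1 and 34.6 CPM in R1810A and 46.9 and 47.6 CPM in WT (-0.48, SE 0.17, adjusted p = 0.470). Both genes separated the groups, in opposite directions. Without WT replicate 1, 1 gene of this list passed as higher (background 1.03%), and with each library removed in turn its median was -0.08 to 0.10.

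The last list held 24 genes of mitosis and replication that p53 represses through p21 and the DREAM complex. All were tested and none passed in either direction (background 0.347% higher and 0.00937% lower). The median was -0.03, and with edgeR 1 was higher and 0 lower at an unadjusted p under 0.05 (background 4.94% and 3.06%). With the deposited total reads as library size 0 were higher and 5 lower at that p, with a median of -0.15. The median of all genes was -0.13 under that scaling, and their share at that p was not counted. Leaving out WT replicate 1 gave a median of -0.07. KIF23, a kinesin of cytokinesis, had 80.6 and 77.0 CPM in R1810A and 58.7 and 60.9 CPM in WT (0.40, SE 0.14, adjusted p = 0.470). PLK1, a kinase of mitotic entry, had 169 and 203 CPM in R1810A and 236 and 206 CPM in WT (-0.25, SE 0.13, adjusted p = 0.654). The separation of PLK1 between the groups was narrow, at 203 against 206 CPM.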

How the data were processed

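Per the submitters' processing notes, reads were aligned with Bowtie to hg19; which program counted them, with what annotation, whether by strand and what became of multiply mapping reads is not given in the sources used here. Per the file headers, counts and RPKM stand side by side for each library. The deposited counts were whole read counts for each gene, not normalized by the authors. The authors' deposited RPKM equalled count over deposited length and total reads within a relative tolerance of 0.0001. What the deposited total reads and gene length columns (other values) count is not stated beyond their headers. A table of gene names gave symbols for 40763 of 51714 identifiers.

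R 4.3.3 and edgeR 4.0.16 were used for the test on counts (genes kept by filterByExpr, TMM factors, glmQLFit, glmQLFTest, group as the only term, Benjamini-Hochberg over all 10674 tested genes, threshold 0.05). SE is the absolute log2 fold change divided by the square root of F, and 95% intervals use it with the test's degrees of freedom; it is not a separately estimated error. Counting intervals are exact conditional binomial intervals. DESeq2 1.42.0, limma-voom (limma 3.58.1), other scalings and filters, a replicate term and leaving out each library were alternatives. The members, the further lists and the rule for named genes (every member, and from each further list the 2 of smallest p where none passed) were chosen with earlier results of these data known. A further gene is not reported here. The labels do not state whether replicates were separate cultures, so the p-values reflect the spread among these 4 libraries alone, part or all of which may be technical. Replicate libraries differed by more than sampling noise (chi-square per degree of freedom 3.77 in WT, 2.02 in R1810A).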

Additional observations from a re-analysis of the deposited data

How the results depend on the processing

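All 12 alternatives were run. None called a pathway gene except leaving out WT replicate 1, where ZMAT3 and AEN passed. Signs held under all 12 in 7 of the 24 genes. For the fits without 1 library this follows largely from whether the groups overlapped. The share of all genes at an unadjusted p under 0.05 was counted for the main fit only. The counts at that p given below for the alternatives therefore have no background beside them. The fits without 1 library tested 24 or 25 pathway genes. With 1 library left out the pathway had 0 to 2 genes called higher, 0 to 8 higher and 0 to 2 lower at an unadjusted p under 0.05, and a median log2 fold change of -0.016 to 0.16. Over all genes there were then 2 to 113 called higher and 0 to 40 lower. The upstream list had 1 to 3 higher at that p and a median of 0.10 to 0.14; the other targets had 0 to 1 called higher, 1 to 5 higher and 0 to 1 lower at that p, and a median of -0.082 to 0.10; the genes repressed through p21 had 0 to 2 higher and 0 to 3 lower. Scaling by the deposited total reads, which moved the median of all genes to -0.13, gave 5 genes called lower over all, 0 higher and 2 lower pathway genes at that p with a median of -0.049, an upstream median of 0.016, 1 higher and 3 lower other targets with a median of -0.095, and 0 higher and 5 lower repressed genes with a median of -0.15. Without a filter on low counts, 78 genes were called higher and 7 lower over all, with 1 lower pathway gene and 4 higher other targets at that p. DESeq2 called 2 lower over all and had 1 higher pathway gene, 1 higher and 0 lower other targets and 0 higher repressed genes at that p. limma-voom called 24 higher over all, and robust edgeR 4 lower. The replicate numbers share no stated source, and deviations of same-numbered libraries correlated at -0.04, so the replicate block is no pairing; with it 73 genes were called higher and 4 lower over all, and 0 pathway genes. The cause of these shifts was not tested. Depth limits the 5 untested genes most; among the tested genes BBC3, TRIAP1 and GADD45A had the fewest reads.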
